A study of Rattus norvegicus with 61 samples.

Results

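The cerebellum of male adolescent Sprague-Dawley rats was compared between implants with a high loading (10%) and a low loading (1%) of 4-OH-PCB52, in 12 of the 61 RNA libraries of the series. The compound is a hydroxylated metabolite of a polychlorinated biphenyl, and every rat in the comparison, in either group, received it from a polymer implant placed under the skin on postnatal day 28 and carried for 28 days. High libraries numbered 5 (animals 13, 14, 27, 44 and 58) and low libraries 7 (animals 6, 7, 20, 35, 37, 51 and 53), each library from a different rat and from tissue punched out of the cerebellum. The libraries were chosen by measured values: of the 16 cerebellar libraries at these loadings 4 were left out, high 28, 43 and 59 for raised transcripts of ribosomal proteins and low 22 for nearly absent transcripts of granule cells. The remaining libraries of the series are 7 sham (0%) and 8 medium (5%) cerebellar libraries and 30 striatal libraries, which served here for levels, with the sham and medium libraries also entering the fits of 4 groups given among the alternatives. The comparison asks which cerebellar transcripts differ between the ends of the range of loadings, without reference to sham.

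Granule cells, the small excitatory neurons that make up most of the cells of the cerebellum, receive mossy fibres and send parallel fibres to Purkinje cells, the inhibitory output neurons of its cortex. Hydroxylated polychlorinated biphenyls are known to bind transthyretin, the thyroid hormone carrier of blood and cerebrospinal fluid, and are conjugated by sulfotransferases. Polychlorinated biphenyls with chlorines in ortho position are known to sensitise ryanodine receptors, the calcium release channels of the endoplasmic reticulum, while those of dioxin-like shape act on the aryl hydrocarbon receptor. Thyroid hormone directs the growth of Purkinje cells and the migration of granule cells in the developing cerebellum.

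The libraries carried the transcripts of cerebellar cortex. Gabra6, a GABA-A receptor subunit of granule cells, ranged over the 12 libraries from 629 to 986 CPM (a count per gene brought to the same total in every library, with scaling by the trimmed mean of M values), with a median of 845, against a median of 0.136 CPM in the striatum of 10 of the same animals. Gabra6 is on the list of granule cell genes, whose transcripts were used to choose the libraries. Its level in the 12 libraries was thus partly set by that choice. The Purkinje cell transcripts Pcp2 and Car8 had medians of 326 and 895 CPM, against 7.46 and 21.0 CPM in that striatum. Drd1, the dopamine receptor that marks striatal neurons, had a median of 1.27 CPM in the cerebellum (0.129 to 10.4) and 307 CPM in the striatum (22.9 to 463). Ppp1r1b, from the list of forebrain neurons, overlapped between the regions. It ranged from 181 to 338 CPM in the 12 libraries (median 203) and from 209 to 3905 CPM in the striatum (median 3158). Totals of the 12 libraries ran from 5895826 to 9488258 counted reads (median 7005558).

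The libraries were chosen by their ribosomal protein and granule cell transcripts. Library means over the lists of these genes are given as a description, and no cut-off was applied to the means. The ribosomal mean was 8.08 log2 CPM in low 6 and 7.37 in low 35, the highest values kept, and 6.70 to 6.83 in the other 10 libraries. Of the libraries left out, high 59 had the lowest ribosomal mean of the high libraries, at 10.0. Low 22, left out for its granule cell transcripts, had a ribosomal mean of 8.28, just above that of low 6. The granule cell mean was 8.63 in low 6, 9.11 in low 35 and 9.23 to 9.40 in the other 10 libraries, and 4.09 in low 22, which was left out. Low 6 thus stood apart from these 10 libraries on both lists. Low 35 stood apart on the ribosomal mean, while its granule cell mean was just under that of low 7 (9.23). On the ribosomal mean low 6 and low 35 lay less far out than high 28, 43 and 59. On the leading principal component, which held 54.7% of the variance, low 6 lay at 91.5, low 35 at 27.5 and the others between -16.1 and -6.52, and the median correlation of low 6 with the other libraries was 0.894, against 0.963 for low 35 and 0.979 to 0.987 for the rest. Results that moved with low 6 and low 35 are therefore also given without them, an alternative chosen after seeing the data.

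**Figure D1:**
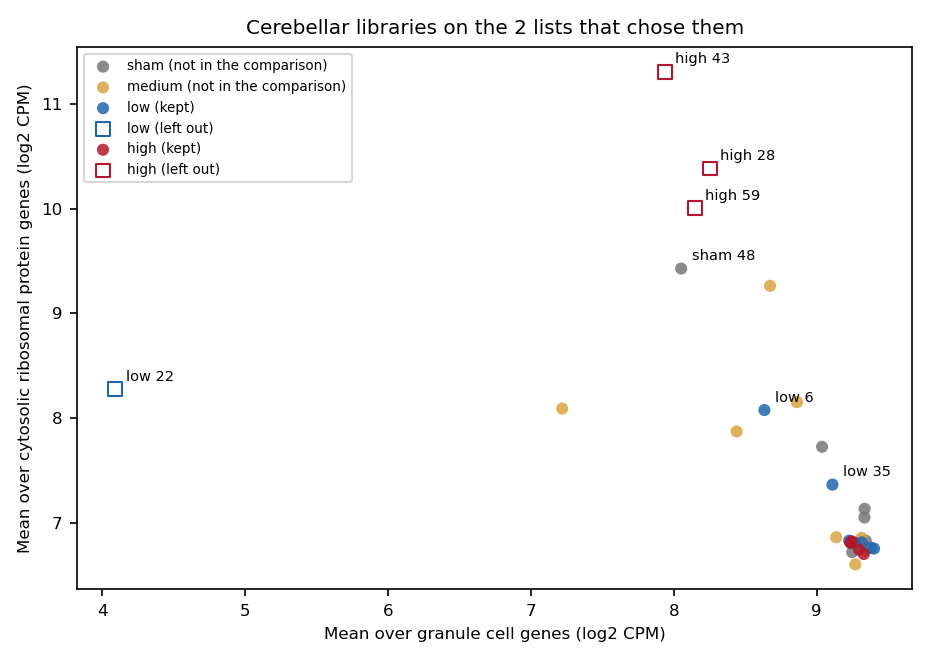
Mean log2 CPM over cytosolic ribosomal protein genes (vertical axis) against the mean over granule cell genes (horizontal axis) for each of the 31 cerebellar libraries. Filled points are libraries kept or libraries of sham and medium rats, and open squares are the 4 libraries left out. Low 6 and low 35 lie above the cluster of 10 kept libraries near 6.8 on the vertical axis and below the libraries left out, of which low 22, at 8.28, is nearest to low 6 on that axis.

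No transcript differed between the loadings past the threshold of an adjusted p of 0.05. The quasi-likelihood test in edgeR, adjusted by the Benjamini-Hochberg method over 11625 genes, called 0 genes (0%), with a smallest adjusted p of 0.738. At an unadjusted p under 0.05 there were 434 genes (3.73%), of which 186 were higher at the high loading (1.6%) and 248 lower (2.13%). The log2 fold change was above 0 for 5652 genes and below 0 for 5973, with a median of -0.0072. Limma-voom also called 0 genes, and DESeq2 called 1, the Wnt ligand Wnt3. Without low 6 the test called 0 of 11574 genes (0%), with 589 at an unadjusted p under 0.05 (5.09%), 285 of them higher (2.46%) and 304 lower (2.63%). Without low 6 and low 35 it called 0 of 11523 genes (0%), with 639 at an unadjusted p under 0.05 (5.55%), 313 higher (2.72%) and 326 lower (2.83%), and a smallest adjusted p of 0.489.

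The intervals limit how large a difference could have gone undetected. With all 12 libraries the 95% interval of the log2 fold change lay within a 2-fold difference in either direction for 10405 genes (89.5%) and within a 1.5-fold difference for 7009 (60.3%). Without low 6 alone these shares were 94.5% and 81.5%, and without low 6 and low 35 they were 95.5% and 83.5%. The median standard error of a gene fell from 0.16 to 0.11 without low 6 and to 0.092 without both libraries. Simulated counts had these group sizes, depths and dispersions, with 67 genes changed 1.5-fold, 67 changed 2-fold and 66 changed 4-fold at once. The same test recovered 29.9%, 82.1% and 98.5% of them. Each gene was drawn independently, without the shared shift of low 6 and low 35, so these shares need not hold for the libraries compared.

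**Figure D2:**
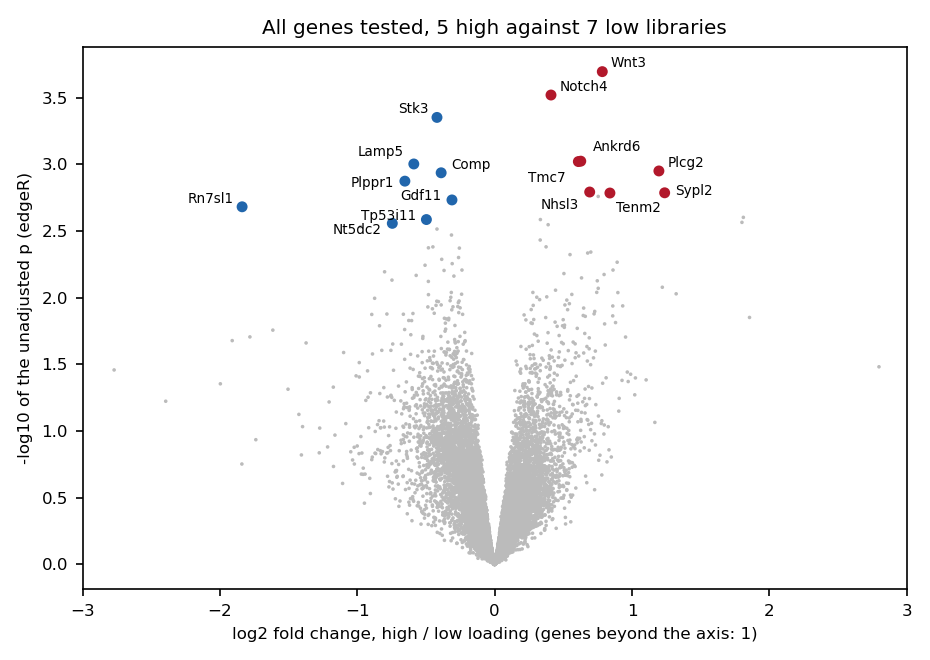
Unadjusted p of edgeR on a -log10 scale (vertical axis) against the log2 fold change of high over low loading (horizontal axis) for the 11625 genes tested. Coloured points are the 8 genes per direction with the smallest p, none of which passed the adjusted threshold; 1 gene, Nrgn at -4.65, lies beyond the axis.

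The 8 genes per direction with the smallest p are described below with their values, since they head the ranking, and none of them counts as a difference. Each had an adjusted p of 0.738 in edgeR. The libraries of the groups did not overlap in 9 of these 16 genes, 3 higher and 6 lower, which follows from ranking by p. Over all genes tested, the groups did not overlap in 54 (0.465%), 15 of them higher (0.129%) and 39 lower (0.335%).

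Among the secreted signals and receptors, Wnt3 (NCBI Gene 24882), a ligand of the Wnt pathway, had the smallest p. Its level was 16.1, 21.7, 21.9, 16.8 and 23.9 CPM in high 13, 14, 27, 44 and 58, and 8.14 to 15.1 CPM in the low libraries (median 11.9). All 5 high libraries lay above all 7 low libraries, with a log2 fold change of 0.78 ± 0.15 (SE, n = 5 and 7; adjusted p = 0.738 in edgeR). DESeq2, fitted to the same 12 libraries, gave 0.78 ± 0.17 and an adjusted p of 0.0276, the 1 call it made. Within the 4 runs of 15 animal numbers, which may stand for the cohorts in which the rats arrived, the difference of mean log2 values was 0.63, 0.84, 0.87 and 0.82. The sham libraries ran from 7.44 to 25.7 CPM (median 15.9), a range that takes in every high library and every low library.

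Ankrd6 (500430) encodes diversin, an adaptor of Wnt and planar polarity signalling. It stood at 70.4, 104, 105, 76.0 and 73.3 CPM in the high libraries and from 40.5 to 70.4 CPM in the low libraries (median 57.5), a log2 fold change of 0.63 ± 0.15. High 14 and 27 were well above the rest, and high 13 was level with low 51, the highest of the low libraries. Notch4 (406162), a Notch receptor of vessel endothelium, was at 23.99, 27.7, 25.3, 26.8 and 26.4 CPM, against 17.5 to 21.9 CPM at the low loading (median 19.5). Its groups did not overlap, and the log2 fold change was 0.41 ± 0.085, a difference of small size and small spread. Gdf11 (29454), a secreted factor of the transforming growth factor family, was lower at the high loading, at 66.1, 68.5, 60.9, 69.2 and 58.2 CPM against 71.4 to 89.6 CPM (median 80.8; -0.31 ± 0.080). Its groups did not overlap either.

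Of the genes for membranes and synapses, Tenm2 (117242), a teneurin that joins synaptic partners across the cleft, was at 14.8, 23.1, 25.5, 12.9 and 12.5 CPM in the high libraries and 6.87 to 13.5 CPM in the low libraries (median 9.93). The log2 fold change was 0.84 ± 0.21, and low 7 lay above high 44 and 58. Plcg2 (29337), a phospholipase C that signals downstream of immune receptors, was at 7.27, 12.3, 11.9, 3.58 and 5.24 CPM against 2.67 to 4.56 CPM (median 3.61; 1.196 ± 0.29). High 44 lay within the range of the low libraries. Sypl2 (362018), a membrane protein related to synaptophysin, was at 2.08, 5.36, 6.32, 2.96 and 3.50 CPM against 0.887 to 2.27 CPM (median 1.74; 1.24 ± 0.31). Nhsl3 (500552), of the Nance-Horan syndrome family, was at 12.5, 17.9, 17.8, 10.0 and 12.8 CPM against 7.73 to 12.4 CPM (median 8.14; 0.69 ± 0.18), with low 6 highest of the low libraries.

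High 14 and 27 were the 2 highest of the high libraries in 5 of the 8 higher genes: Ankrd6, Plcg2, Nhsl3, Sypl2 and Tenm2. The same held for Kcnq5, a potassium channel subunit, at 6.35 and 7.48 CPM against 1.75 to 2.31 CPM in the other high libraries, and for Otx2, a transcription factor, at 86.0 and 84.3 CPM against 7.97 to 40.6 CPM. How often this order held over all genes tested was not counted. Without high 14, Plcg2 stood at 1.00 and Nhsl3 at 0.60 on the log2 scale, and without high 27 Sypl2 stood at 1.02 and Tenm2 at 0.67. Tmc7 (499254), of a family of transmembrane channel-like proteins, did not share this pattern. It was at 9.34, 11.7, 10.6, 9.09 and 11.2 CPM against 5.35 to 8.31 CPM (median 6.72; 0.61 ± 0.14), with no overlap.

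Among the lower genes, Stk3 (65189), a kinase of the Hippo pathway, had the smallest p. It was at 18.7, 16.5, 17.7, 17.6 and 14.1 CPM in the high libraries and 21.3 to 23.7 CPM in the low libraries (median 22.9), a log2 fold change of -0.42 ± 0.091 with no overlap. The sham median of 17.4 CPM was close to the high libraries, and the sham range of 16.3 to 21.7 CPM reached above the lowest low library. Lamp5 (362220), a membrane protein of neuronal vesicles, was at 108, 87.1, 74.3, 119 and 97.6 CPM against 121 to 178 CPM (median 134; -0.59 ± 0.14), with no overlap. Its sham libraries spanned both groups, from 84.4 to 199 CPM.

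Plppr1 (298062), a membrane protein of the phospholipid phosphatase-related family of growing neurites, was at 4.84, 4.38, 3.09, 3.88 and 3.50 CPM in the high libraries. The low libraries ran from 5.26 to 7.49 CPM (median 6.19) and did not overlap with them, with a log2 fold change of -0.65 ± 0.16. The sham libraries ran from 4.92 to 7.02 CPM, the lowest of them just above the highest high library (4.84 CPM). The number of genes in which sham and high libraries did not overlap was not counted. Comp (25304), an extracellular matrix protein first known from cartilage, was at 22.1, 24.1, 20.0, 23.3 and 23.8 CPM against 26.5 to 35.8 CPM (median 29.5; -0.39 ± 0.095), again with no overlap.

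Nt5dc2 (290558), a protein with a nucleotidase domain, varied little at the high loading, at 11.8, 12.0, 11.9, 11.6 and 12.0 CPM. The low libraries ran from 12.2 to 31.5 CPM (median 19.1), with low 6 and low 35 (24.1 CPM) the 2 highest, and the log2 fold change went from -0.74 ± 0.20 to -0.49 without these 2. Tp53i11 (311209), a gene induced by p53, was at 99.2, 75.1, 72.8, 94.5 and 109 CPM against 109 to 165 CPM (median 124; -0.50 ± 0.13). There too low 35 and low 6 (137 CPM) were the highest.

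Rn7sl1 (102723236) is the RNA of the signal recognition particle, which has no poly(A) tail and near-identical copies in the genome, so its counts are uncertain. It was at 4.61, 2.82, 1.42, 1.23 and 1.75 CPM in the high libraries and 1.90 to 16.9 CPM in the low libraries (median 7.09; -1.84 ± 0.48). The order turned in the libraries left out, where high 28, 43 and 59 held 229, 151 and 62.7 CPM and low 22 held 61.9 CPM, against a sham maximum of 46.7 CPM. The labels name capture of poly(A) RNA or ribosomal RNA depletion without saying which library had which, and the part of that step in this result was not tested.

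All 16 genes had the same sign in each of the 4 runs of animal numbers, which the ranking by p in the same libraries favours, beside 21.1% of all genes tested. The range of the 7 sham libraries took in the medians of both loadings in 10 of the 16, and that of the 8 medium libraries in 9. Sham and medium libraries had not been chosen by ribosomal protein and granule cell transcripts. On the ribosomal mean, the granule cell mean or both, 1 sham library (sham 48) and 4 medium libraries (medium 8, 24, 40 and 41) lay outside the 12 libraries compared. Without them the sham range took in both medians in 8 of the 16 genes and the medium range in 1. The sham median lay between the medians of the loadings in 12 genes, and it was nearer to the low median in 12 and to the high median in 4. In the striatum of the same animals (5 high and 5 low) the difference had the same sign in 10 of the 16, without a test. The counts against sham, medium and striatal libraries were made for these 16 genes only, not over all genes tested.

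**Figure D3:**
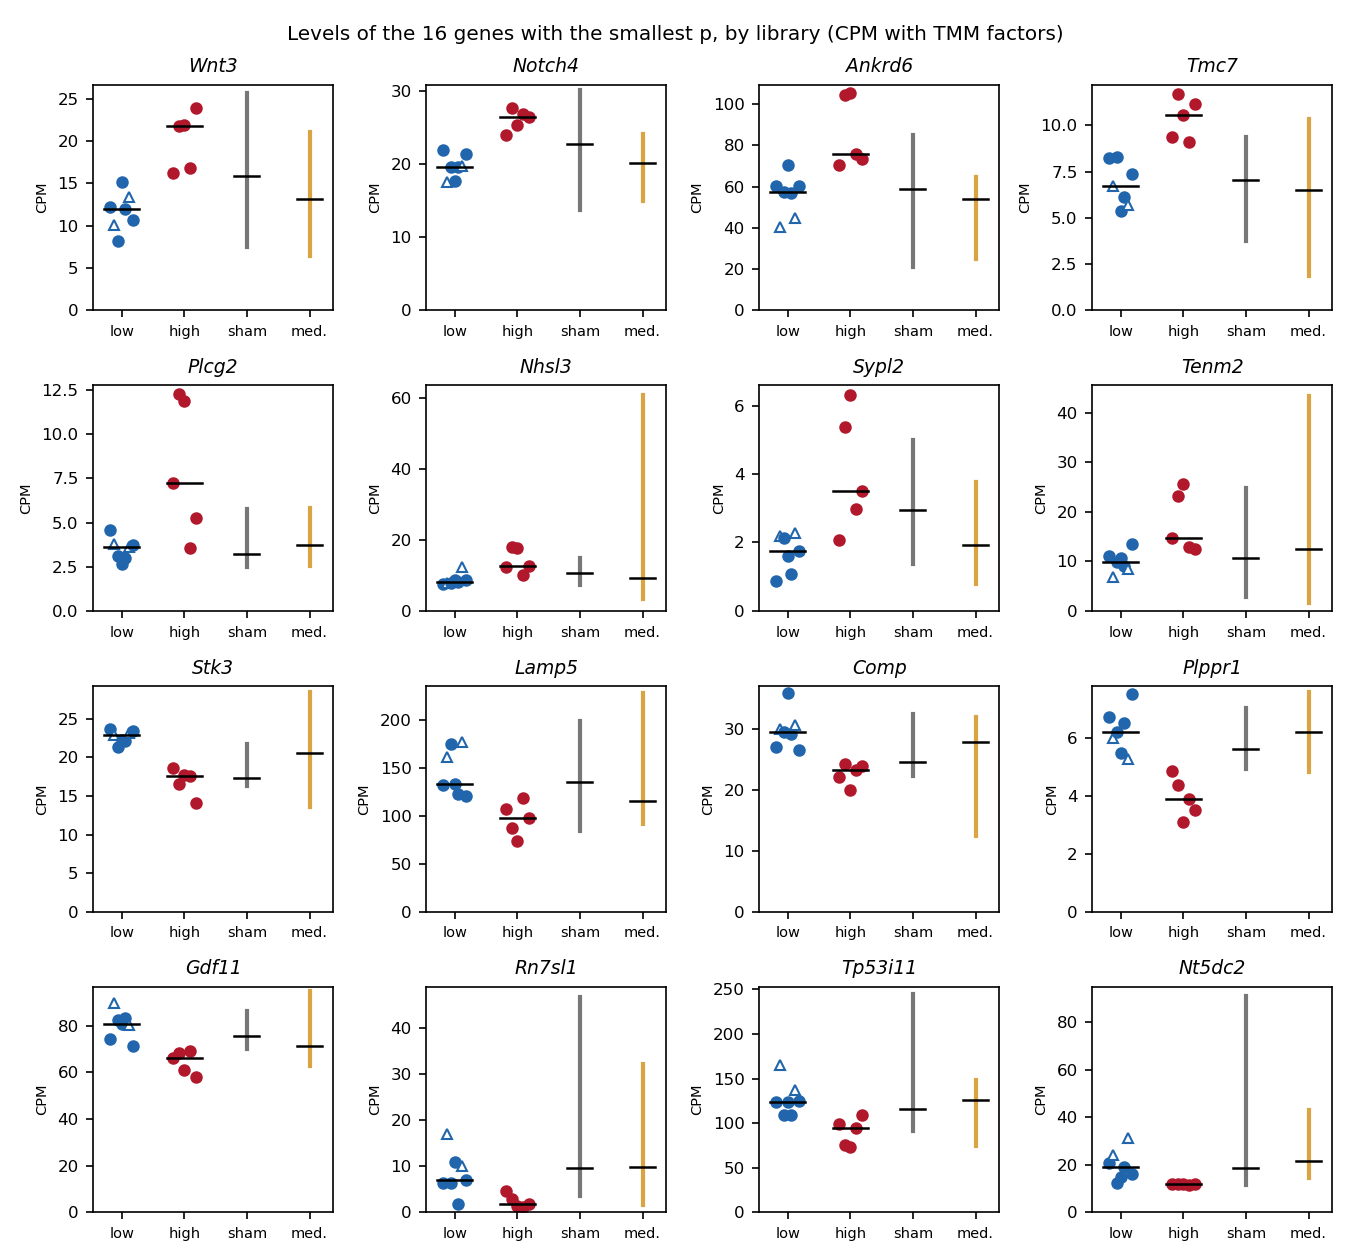
Level (CPM, vertical axes from 0) of the 16 genes with the smallest p in each low and high library, with the median as a black line. Open triangles are low 6 and low 35, and vertical lines give the range of the 7 sham and 8 medium libraries with their medians. In Wnt3, Notch4, Tmc7, Stk3, Lamp5, Comp, Plppr1, Gdf11 and Nt5dc2 the 2 groups do not overlap, while the sham range takes in both medians in 10 of the 16 genes, or 8 without sham 48.

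Genes of cell types were described by list, with no test of a list. No member of any of the 41 lists passed the threshold. Granule cell genes, which the choice of libraries used, were higher in 7 of 13 and had a median log2 fold change of 0.039, beside -0.0072 over all genes tested, and were higher in 5 of 13 with a median of -0.017 without low 6. Gabra6 stood at -0.087 ± 0.12 with a 95% interval from -0.34 to 0.16. Cbln3, a secreted organiser of parallel fibre synapses, was at 517, 522, 549, 538 and 550 CPM in the high libraries and 203 to 608 CPM in the low libraries (median 514; interval -0.32 to 0.56), with the lowest value in low 6. Neurod1, a transcription factor of granule cells, had an interval from -0.27 to 0.27. Calb2, the calcium buffer calretinin, had the smallest p of the list at -0.26 ± 0.089, with the lowest low library at 562 CPM inside the high range of 450 to 581 CPM. Pax6, a transcription factor, and Grin2c, a subunit of the mature NMDA receptor, stood at 0.18 ± 0.11 and 0.29 ± 0.18, and at 0.069 and 0.092 without low 6 and low 35.

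Purkinje cell genes were lower in 11 of 14, with a median of -0.13. Without low 6 and low 35 the count was 8 of 14 and the median -0.029. Pcp2, a regulator of G protein signalling, was at 305, 294, 284, 326 and 284 CPM in the high libraries and 322 to 709 CPM in the low libraries (median 341). Low 6 and low 35 (486 CPM) held the most Pcp2, and its log2 fold change of -0.46 ± 0.19 became -0.16 without them (adjusted p = 0.608 in edgeR). Car8, which binds the inositol trisphosphate receptor, stood at -0.28 ± 0.11 with all libraries and -0.19 without these 2. Homer3, a scaffold of metabotropic glutamate receptors, stood at -0.21 ± 0.10 (-0.097 without these 2), and the calcium buffer Calb1 had an interval from -0.36 to 0.094.

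Genes of inhibitory interneurons were higher in 11 of 13 (median 0.11), and in 5 of 13 (median -0.0090) without low 6 and low 35. Glial lists had medians of -0.10 (Bergmann glia, 3 of 7 higher), -0.079 (astrocytes, 5 of 15), -0.057 (oligodendrocytes and myelin, 6 of 16) and 0.092 (oligodendrocyte precursors, 7 of 10). Without low 6 these medians were -0.030, -0.024, 0.049 (13 of 16 higher) and 0.16 (8 of 10), and without low 6 and low 35 they were -0.040, -0.00080, -0.018 and 0.071. Gdf10, a transcript of Bergmann glia, stood at 0.19 ± 0.11, the astrocyte water channel Aqp4 at 0.12 ± 0.13 (0.034 without low 6) and the myelin protein Mbp at -0.13 ± 0.26 (0.053 without low 6). Microglial genes were lower in 16 of 18 (median -0.15), and without low 6 and low 35 in 7 of 17 (median 0.027). Itgam, the integrin CD11b, was among the 2 higher genes, at 9.34, 9.74, 8.38, 7.46 and 9.01 CPM against 3.51 to 8.03 CPM (median 6.59; 0.49 ± 0.18). Tmem119, a surface protein of resident microglia, was at 5.88, 4.23, 3.09, 3.88 and 2.15 CPM against 2.93 to 10.8 CPM (median 6.38), with low 35 and low 6 highest (-0.82 ± 0.32, and -0.46 without these 2). The complement gene C1qb was also highest in these 2 libraries, with 35.6 CPM in low 6 and 28.9 CPM in low 35 against at most 16.1 CPM elsewhere (-0.55 ± 0.25, and -0.13 without them). In tissue punches, fewer cells of a type and less RNA per cell cannot be told apart.

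Meningeal fibroblast genes, markers of the membranes over the cerebellar surface, were lower in 17 of 17, with a median of -0.45. Low 35 had a list mean of 6.71 log2 CPM, against 2.72 to 4.98 in the other low libraries and 3.07 to 5.44 in the high libraries, where high 27 was lowest. Without low 6 alone the median was -0.52, and without low 6 and low 35 the list had 15 of 17 genes higher and a median of 0.18. Ptgds, the prostaglandin synthase of the meninges, was at 8007 CPM in low 35 and 174 CPM in low 37, and its log2 fold change of -0.96 ± 0.73 became 0.14 without low 6 and low 35. The matrix proteoglycan Dcn and the organic anion transporter Slc22a6 were also highest in low 35, at 32.3 and 50.0 CPM, and stood at -0.76 ± 0.48 and -0.77 ± 0.62. Without low 35 these values were -0.28 and -0.16, and without low 6 and low 35 -0.098 and -0.0045. Mural cell genes had a median of -0.29, and 0.056 without the 2 libraries. Endothelial genes were higher in 10 of 18 (median 0.032), and in 15 of 18 (median 0.13) without low 6 and low 35. The tight junction gene Cldn5 was among the 8 lower genes of that list. It was at 221 CPM in low 6 and 162 CPM in low 35 against at most 96.0 CPM elsewhere, and went from -0.42 ± 0.25 to 0.015 without these 2.

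The choroid plexus secretes cerebrospinal fluid, and its transcripts were higher in 6 of 9 tested genes (median 0.20). The median was -0.20 without high 13, and 0.40 with 6 of 8 higher without low 6 and low 35. Ttr, the thyroid hormone carrier that the plexus secretes, was at 246, 16.4, 12.4, 1.02 and 3.09 CPM in high 13, 14, 27, 44 and 58, and from 0 to 21.9 CPM in the low libraries (median 2.17). A single library, high 13, carried the log2 fold change of 2.80 ± 1.18, which was 0.0015 without it. Slc4a5, a bicarbonate transporter of the plexus, was also highest in high 13, at 7.04 CPM, and stood at 0.59 ± 0.51 with that library and -0.20 without it. Otx2, counted here as a plexus marker, did not share that order. It stood at 1.86 ± 0.66 with a high library, high 44, at 7.97 CPM and a low library, low 37, at 0.489 CPM.

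Genes for protein synthesis and respiration stood lower at the high loading as lists, and these medians moved with low 6 and low 35. Cytosolic ribosomal protein genes, used to leave libraries out and so only described, were lower in 75 of 75 with a median of -0.38, with a median of -0.12 without low 6, and with 38 of 75 lower and a median of -6.3e-05 without these 2 libraries. Nuclear-encoded respiratory chain genes were lower in 75 of 75, with a median of -0.35. Their library mean was 7.65 log2 CPM in low 6 and 6.90 in low 35, against at most 6.51 in the other kept low libraries and 6.35 to 6.44 in the kept high libraries. High 28, 43 and 59, left out for ribosomal protein transcripts, had means of 9.22, 10.1 and 9.01 on this list, and low 22 of 7.94. Leaving out these high libraries while keeping low 6 and low 35 favoured a lower value at the high loading. Without low 6 and low 35, 51 of 75 were lower and the median was -0.026. Mitochondrial ribosomal proteins (66 of 70 lower, median -0.24) and proteasome subunits (38 of 42 lower, median -0.21) went to medians of 0.011 and 0.0015.

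Most lists of neuronal receptors and channels had medians above 0 with all 12 libraries. Glutamate receptor genes were higher in 21 of 24, with a median of 0.15, and in 13 of 24, with a median of 0.0083, without low 6 and low 35. The left-out high 28, 43 and 59 had means of 4.02, 3.77 and 3.90 log2 CPM on this list, below every kept library, so the choice of libraries favoured this direction. Potassium and HCN channel genes were higher in 24 of 34 (median 0.10) and then in 11 of 34 (median -0.036). Sodium channel genes were higher in 7 of 12 (median 0.12) and then in 1 of 12 (median -0.10). Genes of GABA-A receptors were higher in 7 of 12 and had a median of 0.070, against -0.037 without the 2 libraries. Genes of dopamine and monoamine handling lay lower, with 3 of 10 higher and a median of -0.11, and 6 of 9 higher and a median of 0.044 without the 2 libraries. In all, 26 of the 41 lists had a median more than 0.1 log2 units from 0 with all 12 libraries, and 6 without low 6 and low 35. The median turned sign in 18 lists.

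**Figure D4:**
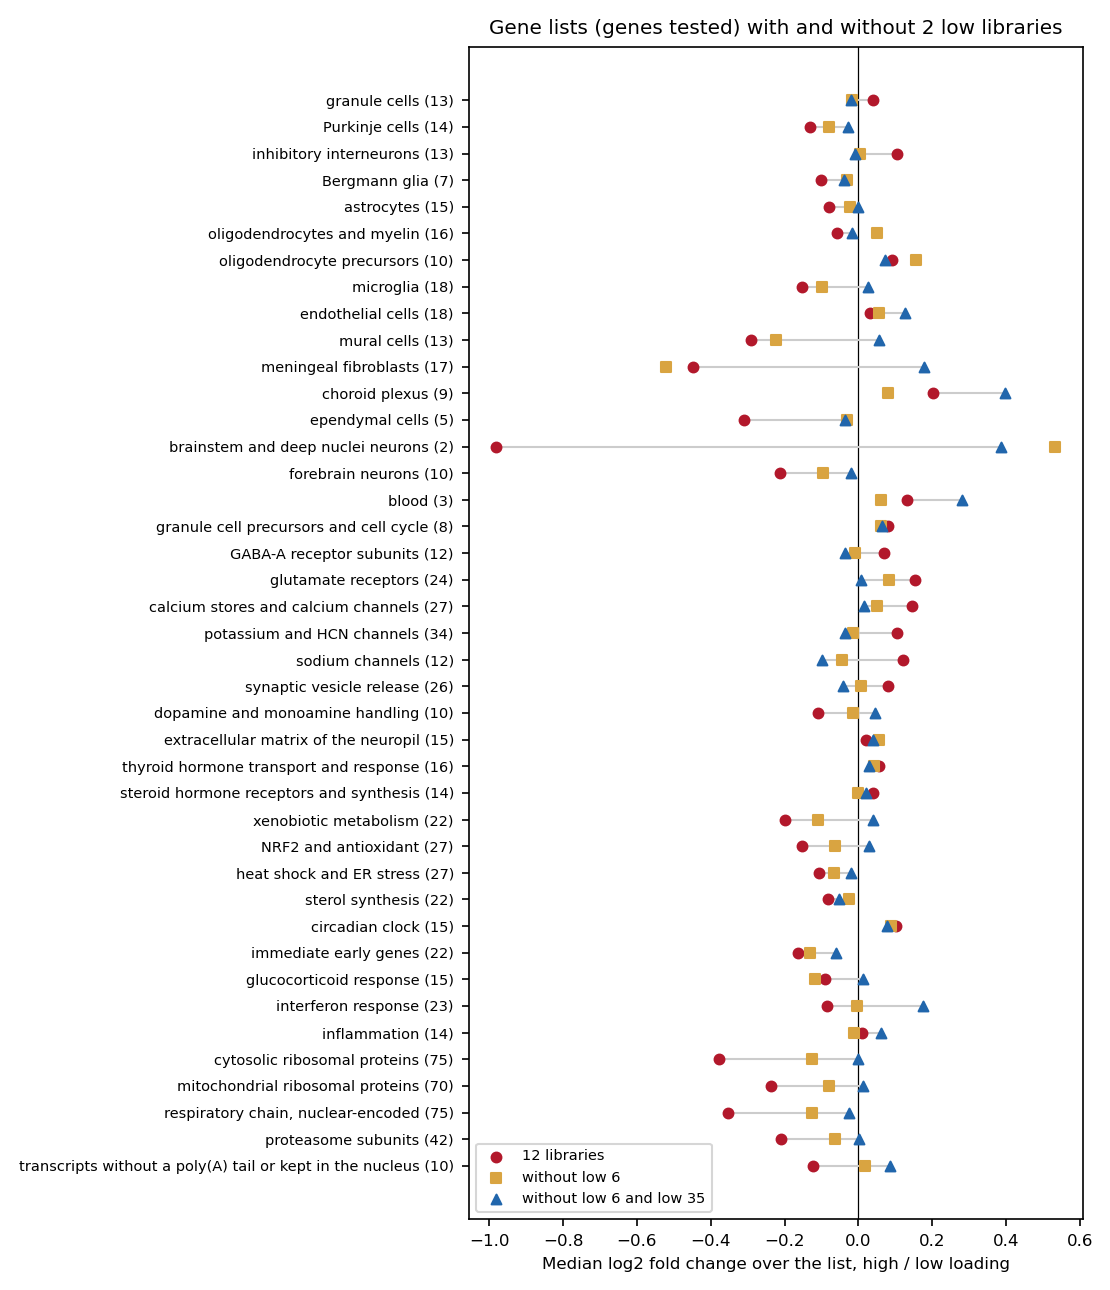
Median log2 fold change of high over low loading (horizontal axis) for each of the 41 gene lists, with the number of genes tested in brackets. Circles are the 12 libraries, squares leave out low 6 and triangles leave out low 6 and low 35. The ribosomal, respiratory and fibroblast lists at -0.38, -0.35 and -0.45 lie at -6.3e-05, -0.026 and 0.18 without these 2 libraries.

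Genes of calcium stores and calcium channels were higher in 18 of 27 (median 0.14), and in 14 of 27 without low 6 and low 35 (median 0.015). Ryr2, a ryanodine receptor of neurons and heart, was at 467, 452, 491, 628 and 601 CPM in the high libraries and 58.1 to 669 CPM in the low libraries (median 472). The low libraries were lowest in low 6 and next in low 35 (244 CPM), and the interval of -0.57 to 1.17 is correspondingly wide. Its log2 fold change was 0.30 with all libraries and -0.030 without these 2. Ryr1 was not analysed here. Itpr1, the inositol trisphosphate receptor of Purkinje cells, was at 1457 CPM in low 6 and at 3401 to 4687 CPM in the other 11 libraries, with a log2 fold change of 0.22 ± 0.21 that was 0.079 without low 6.

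Orai3 and Orai1, channels that refill the calcium stores, had the smallest p of that list together with Cacna1g, a T-type calcium channel. Orai3 was at 30.9, 34.9, 33.0, 34.6 and 31.1 CPM in the high libraries and 36.0 to 55.8 CPM in the low libraries (median 39.6), with no overlap and a log2 fold change of -0.37 ± 0.11 (-0.23 without low 6 and low 35). Orai1 was at 12.5 to 16.7 CPM at the high and 14.6 to 36.9 CPM at the low loading (-0.63 ± 0.22, and -0.28 without the 2 libraries). Both were thus lower by a smaller amount when the 2 libraries were left out. Cacna1g stood at 0.51 ± 0.19, with high 14 and 27 highest at 628 and 679 CPM.

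Among other neuronal genes, Kcnab1, an accessory subunit of potassium channels, was at 119, 107, 77.9, 160 and 124 CPM against 137 to 190 CPM (median 162; -0.48 ± 0.15). Kcnq5 stood at 1.32 ± 0.43 and Kcnk1, a leak channel, at -0.16 ± 0.074. Synaptic vesicle genes were higher in 18 of 26 (median 0.080), in 13 of 26 without low 6 (0.0061) and in 12 of 26 without low 6 and low 35 (-0.040). Cplx1, which clamps vesicle fusion, was at 629, 544, 473, 697 and 638 CPM against 663 to 1196 CPM (median 782; -0.51 ± 0.15, and -0.34 without low 6 and low 35), with low 6 highest. Rab3a and Vamp1, a small GTPase and a fusion protein of synaptic vesicles, stood at -0.22 ± 0.15 and -0.13 ± 0.091, and at -0.089 and -0.087 without low 6, in which Rab3a was at 603 CPM. In the extracellular matrix list, Plppr1 was followed by the perineuronal net link protein Hapln4 (-0.26 ± 0.091) and by Plppr5 (-0.34 ± 0.13), and the list itself was higher in 8 of 15 genes (8 of 14 without low 6 and low 35).

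The thyroid hormone genes gave small estimates with the exception of Nrgn. The list was higher in 11 of 16, with a median of 0.055, and in 9 of 16, with a median of 0.028, without low 6 and low 35. The receptors Thra and Thrb stood at -0.012 ± 0.098 and 0.069 ± 0.16, with 95% intervals from -0.22 to 0.20 and from -0.27 to 0.41. Dio2, the deiodinase that makes the active hormone, was at 46.5, 39.4, 43.4, 49.1 and 41.1 CPM at the high loading and 30.03 to 52.4 CPM at the low loading (median 45.5), with an interval from -0.27 to 0.28. The hormone-induced genes Hr, a corepressor, and Klf9, a transcription factor, had intervals from -0.12 to 0.58 and from -0.37 to 0.42. The hormone-binding protein Crym, highest in low 6 at 19.1 CPM, stood at -0.32 ± 0.28, and at -0.069 without low 6. Nrgn, a calmodulin-binding protein of forebrain neurons that thyroid hormone regulates, was at 471 CPM in low 6 and at most 8.62 CPM in the other 11 libraries. Its log2 fold change of -4.65 ± 1.67 was -0.52 without low 6. The list mean of forebrain neurons was also highest in low 6, at 2.86 log2 CPM, against 1.65 to 2.19 in the other low libraries and 1.63 to 1.85 in the high libraries.

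Genes of xenobiotic metabolism were lower in 16 of 22, with a median of -0.20, and in 8 of 22, with a median of 0.039, without low 6 and low 35. Ahr, the aryl hydrocarbon receptor, was at 8.19, 6.21, 2.84, 12.9 and 6.99 CPM against 2.79 to 10.6 CPM (median 8.55; interval -0.81 to 0.67). Its target Cyp1b1, a monooxygenase, was at 0.258 to 2.69 CPM at the high and 0.163 to 4.97 CPM at the low loading, too low for a narrow interval (-1.76 to 1.21). Sult1a1, a sulfotransferase of phenols, was highest in low 35 at 45.1 CPM, with an interval from -0.75 to 0.53.

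Ephx2, the soluble epoxide hydrolase, had the smallest p of the list. It was at 3.11, 2.54, 2.58, 3.58 and 3.63 CPM in the high libraries and 3.58 to 26.5 CPM in the low libraries (median 3.94; -1.61 ± 0.59). Only low 6 and low 51 (20.2 CPM) exceeded 4.18 CPM among the low libraries, and without low 6 the value was -1.09. The glutathione transferases Gstm1 and Gsta4 stood at -0.45 ± 0.23 and -0.72 ± 0.40 with all libraries, and at -0.094 and 0.00025 without low 6 and low 35. Antioxidant genes under NRF2 were lower in 21 of 27 (median -0.15), and in 11 of 27 (median 0.030) without the 2 libraries. Nqo1, a quinone reductase, and Hmox1, which degrades haem, had intervals from -0.73 to 0.22 and from -0.51 to 0.20.

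**Figure D5:**
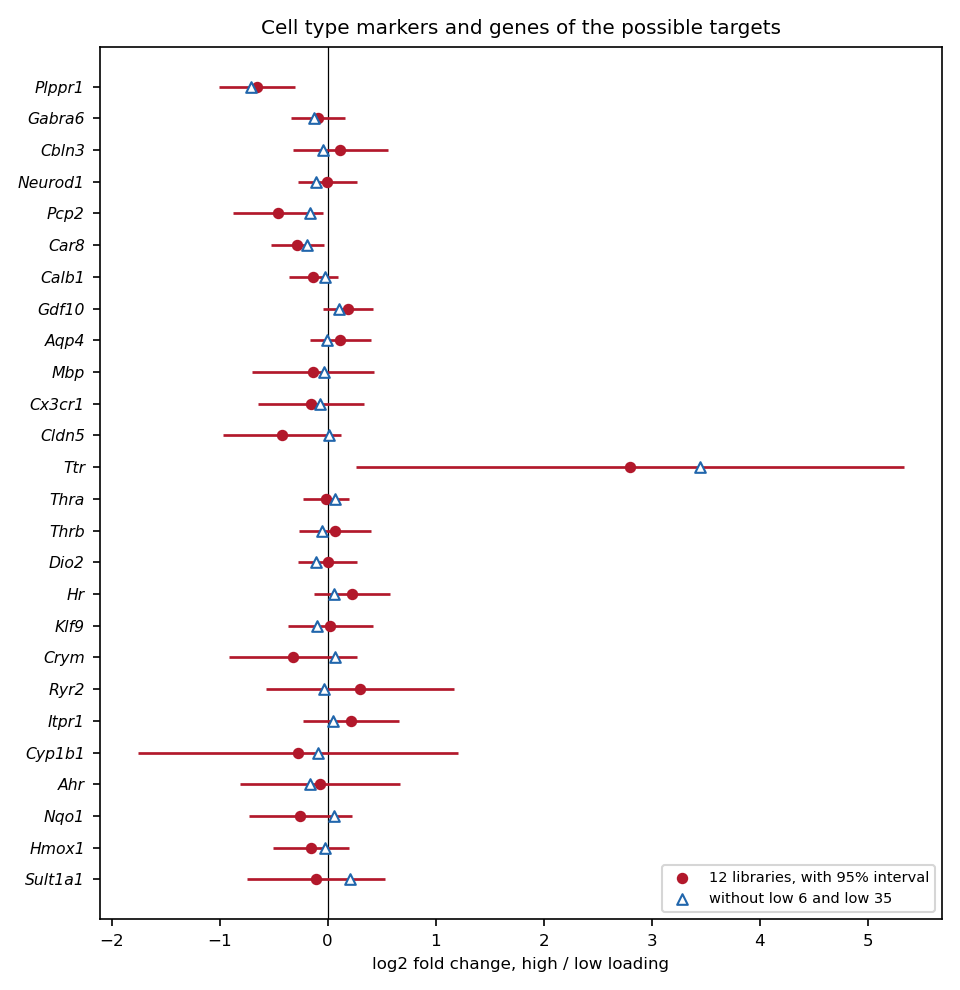
Log2 fold change of high over low loading (horizontal axis) with its 95% interval for cell type markers, genes of the compound's possible targets and Plppr1 in the 12 libraries (circles), and the value without low 6 and low 35 (triangles). Plppr1, Pcp2, Car8 and Ttr have unadjusted intervals that leave out 0, none passed the adjusted threshold, and the interval of Ttr, from 0.26 to 5.33, rests on high 13.

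The remaining response lists held no called gene either. Heat shock and endoplasmic reticulum stress genes were lower in 22 of 27 (median -0.11; 16 of 27 and -0.021 without low 6 and low 35), and immediate early genes in 17 of 22 (-0.16; 16 of 22 and -0.060). Circadian clock genes were higher in 12 of 15 (median 0.10; 10 of 15 and 0.078 without the 2 libraries). Interferon response genes were lower in 17 of 23 (-0.085), and without the 2 libraries 15 of 21 were higher (0.18). Sterol synthesis genes were lower in 16 of 22 with a median of -0.081, and in 14 of 22 with a median of -0.052.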

How the data were processed

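The deposited values were whole-number read counts per gene and library, per the labels and the file headers, and their totals per library are given above. The submitters' processing notes name the rn6 build, FastQC and HISAT2. Not given in the sources used here are their versions, the counting tool, the strand setting and the annotation. RNA was taken from tissue punches with TRIzol and RNeasy columns, per the labels' protocols. The cerebellar table held 14129 genes, 14063 of them with a symbol for their NCBI Gene ID in the RefSeq table used for names, and no gene had fewer than 10 reads over all libraries.

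Counts of the 12 libraries were scaled by the trimmed mean of M values, filtered with filterByExpr and tested without covariates by edgeR's quasi-likelihood test with robust dispersions, two-sided, with Benjamini-Hochberg adjustment and a threshold of 0.05. Standard errors were taken as the log2 fold change over the square root of F, with 95% intervals from the t distribution with the test's degrees of freedom, unadjusted. CPM were scaled over all 31 cerebellar libraries, and the prior count in library means of lists (log2 CPM) was 2. The text names the 8 genes per direction with the smallest p, because none passed, the 3 members with the smallest p of the lists described gene by gene, and fixed markers and target genes; 1 gene named by this rule is not reported here. The libraries, the gene lists, the named genes and the tests were chosen with earlier results of these data known.

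Alternatives were size factors of relative log expression (RLE), DESeq2 (Wald test), limma-voom with quality weights, no filter, a mean CPM of at least 1, a block for runs of 15 animal numbers, fits of 4 groups, all 16 libraries, ribosomal or granule cell means as covariates, and leaving out each library. The labels name 4 cohorts 3 weeks apart without giving each rat's. Leaving out low 6 and low 35, and the sham and medium ranges without libraries outside the means of the 12, were added after seeing the data. The test was checked on simulated counts of 11625 genes, in which 143 genes were called, 3 of them unchanged. Fits used DESeq2 1.42.0, limma 3.58.1 and edgeR 4.0.16 in R 4.3.3.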

Additional observations from a re-analysis of the deposited data

Results flagged for a closer look

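Among 146 groups of library values examined (68 genes and 5 list means at each loading), 22 had a library far from the others of its loading. This was judged by the gap to the nearest library as a share of the range, with a cut-off set at a nominal 1 in 20 for independent, normally distributed values. The CPM were not transformed, the genes share libraries, and some genes were named by their p in them. Granule cell transcripts, which include Cbln3 and Neurod1, served to choose the libraries. The number is therefore not compared with chance. Low 6 was the library far from the others in 14. It was highest of the 7 low libraries for Nhsl3 (12.4 CPM), Pcp2 (709), Thra (500.1), Crym (19.1), Rab3a (603), Nrgn (471) and Gstm1 (218), and for the respiratory chain mean (7.65 log2 CPM). It was lowest for Cbln3 (203 CPM), Neurod1 (440), Klf9 (71.8), Itpr1 (1457) and Ahr (2.79), and for the granule cell mean (8.63 log2 CPM). Low 35 was highest for Sult1a1 (45.1 CPM) and for the fibroblast genes Dcn (32.3), Ptgds (8007) and Slc22a6 (50.0). Of the 5 high libraries, high 13 was highest for the choroid plexus genes Ttr (246 CPM) and Slc4a5 (7.04), high 14 for Rab3a (372 CPM), and high 27 was lowest for the mean of forebrain neuron genes (1.63 log2 CPM).

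Rn7sl1 stood above the highest sham library (46.7 CPM) in each of the 4 libraries that the comparison leaves out, at 229 CPM in high 28, 151 CPM in high 43, 62.7 CPM in high 59 and 61.9 CPM in low 22.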

How the results depend on the processing

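Of the alternatives tried, DESeq2 alone called a gene: it called 1 higher gene, Wnt3 (0.78, adjusted p = 0.0276), and 0 lower genes, where edgeR called 0 of each under every alternative, with smallest adjusted p from 0.102 (4 groups with all 31 cerebellar libraries) to 0.987 (4 groups without the 4 libraries left out). Leaving out 1 library at a time gave 0 calls in all 12 fits, with 253 (without high 27), 275 (high 14) or 279 (low 35) to 589 (low 6) genes at an unadjusted p under 0.05, beside 434. That number was 102 in the fit of 4 groups without the libraries left out, 797 with limma-voom (which called 0), 1145 with the granule cell mean as covariate, 1624 (1447 higher) with all 16 libraries and 2391 (2087 higher) in 4 groups with all cerebellar libraries. No paired analysis was possible because high and low libraries come from different rats and share no animal numbers; blocking on runs of 15 animal numbers called 0 genes (smallest adjusted p 0.661). The 16 genes with the smallest p kept their sign in the 22 settings without the libraries left out. The ranking by p in the same high and low libraries favours this, and the share over all genes was not counted. When the libraries left out were added, 4 of the 16 turned. At these depths Cyp1b1, at 0.163 to 4.97 CPM in the 12 libraries, rested on few reads. The causes of the reversals were not tested.

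With all 8 high and 8 low libraries 33 of the 68 named genes turned sign. Their log2 fold changes were Tmc7 -0.0088, Comp 0.030, Rn7sl1 1.91, Nt5dc2 0.55, Cbln3 -0.26, Pcp2 2.15, Car8 1.21, Calb1 0.63, Aqp4 -0.31, Cldn5 0.17, Thra 0.13 and Thrb -0.56. Next came Dio2 -0.25, Hr -0.099, Klf9 -0.33, Crym 0.88, Ryr2 -0.16, Itpr1 -0.068, Nqo1 0.51, Hmox1 0.34, Sult1a1 0.24, Homer3 0.54, Calb2 0.21 and Grin2c -0.00072. The rest were Itgam -0.058, C1qb 0.50, Ptgds 0.46, Orai3 1.01, Orai1 0.78, Kcnk1 0.26, Rab3a 0.20, Gstm1 0.72 and Gsta4 0.47. In 4 groups with all cerebellar libraries 34 turned, among them Tmc7 -0.015, Comp 0.033, Rn7sl1 1.90, Nt5dc2 0.55, Cbln3 -0.26, Pcp2 2.16, Car8 1.22, Calb1 0.64, Aqp4 -0.31, Cldn5 0.16, Thra 0.13 and Thrb -0.57. There the values also included Dio2 -0.25, Hr -0.10, Klf9 -0.33, Crym 0.88, Ryr2 -0.16, Itpr1 -0.066, Nqo1 0.50, Hmox1 0.34, Sult1a1 0.24, Homer3 0.55, Calb2 0.22 and Grin2c -0.00015. The remaining ones were Itgam -0.063, C1qb 0.50, Ptgds 0.46, Orai3 1.01, Orai1 0.78, Kcnq5 -0.00014, Kcnk1 0.26, Rab3a 0.19, Gstm1 0.72 and Gsta4 0.46.

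Without low 6 and low 35, 13 turned, to Cbln3 -0.041, Aqp4 -0.00080, Cldn5 0.015, Thra 0.068, Thrb -0.052, Dio2 -0.10, Klf9 -0.10, Crym 0.065, Ryr2 -0.030, Nqo1 0.059, Sult1a1 0.21, Ptgds 0.14 and Gsta4 0.00025. With the ribosomal mean as covariate the turned values were Cbln3 -0.10, Aqp4 -0.013, Mbp 0.061, Thra 0.084, Thrb -0.039, Dio2 -0.12, Klf9 -0.16, Crym 0.074, Ryr2 -0.11, Itpr1 -0.012, Nqo1 0.066, Sult1a1 0.021 and Nrgn 0.27. With the granule cell mean they were Mbp 0.0093, Thra 0.041, Dio2 -0.049 and Klf9 -0.058. With limma-voom they were Cbln3 -0.015, Thra 0.082, Thrb -0.056, Dio2 -0.096, Klf9 -0.066, Crym 0.064, Nqo1 0.047 and Sult1a1 0.053. The block turned Neurod1 to 0.031 and Sult1a1 to 0.013, no filter turned Neurod1 to 2.1e-05, and 4 groups without the libraries left out turned Dio2 to -0.00059. Leaving out 1 library at a time, genes that turned ranged from -0.017 to 0.17 (Cbln3), -0.087 to 0.026 (Neurod1), -0.33 to 0.053 (Mbp), -0.036 to 0.055 (Thra), -0.0089 to 0.13 (Thrb), -0.073 to 0.052 (Dio2), -0.10 to 0.072 (Klf9), -0.53 to 0.16 (Cyp1b1), -0.36 to 0.13 (Ahr), -0.25 to 0.21 (Sult1a1) and -0.20 to 0.89 (Slc4a5).

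Of the 41 list medians, 27 turned sign with all 16 libraries, 19 with the ribosomal covariate, 18 without low 6 and low 35, 9 without low 6, and 0 with DESeq2 or RLE size factors.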
